A study of Mus musculus with 10 samples.

Results

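Striated muscle genes were examined in whole embryonic mouse kidneys. A list of 53 genes that encode parts of the sarcomere, or proteins that couple electrical excitation to contraction, was matched by symbol to the deposited expression table, and all 53 were found among its 35663 entries. The list held 7 myosin heavy chains, 6 myosin light chains, 2 sarcomeric actins, 8 troponins, 5 genes for thin filament length and stability, 10 for titin, the Z-disc and the M-band, 4 myosin-binding proteins, 6 excitation-contraction genes, 3 acetylcholine receptor subunits and 2 further striated muscle genes. Each gene was also placed by textbook knowledge in an isoform class, such as developmental, fast skeletal, slow skeletal or cardiac.

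The sarcomere is the contractile unit of skeletal and cardiac muscle, in which myosin heads in the thick filament pull on actin in the thin filament when calcium binds troponin. Most of its proteins come in isoforms from separate genes. Embryonic skeletal muscle uses developmental myosins together with the cardiac actin and atrial light chain genes, and replaces them with fast or slow isoforms as fibres mature, while some slow isoforms are shared with the heart ventricle. The kidney has smooth muscle but forms no sarcomeres of its own.

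The RNA came from dissected kidneys of E13.5 embryos on a C57/b6 background, and all groups share this stage and strain. Wild-type kidneys (n=4) are labelled by that genotype only. Foxd1GC control kidneys (n=3) carried Foxd1-Cre, which is active in stromal progenitors, with no floxed allele named of *Ntn1*, the gene for the secreted guidance protein netrin 1. The study also counts the loss of a *Foxd1* allele as part of Foxd1GC. Ntn1SPKO kidneys (n=3) carried the same Foxd1-Cre with *Ntn1* floxed on both alleles, so that *Ntn1* is lost from cells of the *Foxd1* lineage and not from other cells that the dissected tissue holds. The study's general statement that n counts embryos stands with its imaging, and the number of embryos behind each RNA library is not given in the sources used here, so p-values measure the spread between these libraries only.

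Summed FPKM (fragments per kilobase and 1e6 fragments) was 795829 to 1002638 per library, and the spacing of its lowest values put depth at about 26 to 31 M fragments (M, 1e6). *Ntn1* was at 10.7 to 16.3 FPKM in Ntn1SPKO and at 24.2 to 51.4 FPKM in all other libraries, matching the labels. All 10 kidney markers, including *Six2* and *Wt1*, were above 0 in every library, and their summed level was 390 to 506 FPKM. Y-linked genes summed to at least 88.6 FPKM in wild-type replicate 3, Foxd1GC control replicate 2 and all 3 Ntn1SPKO libraries, and to at most 1.02 FPKM in the other 5, so genotype and embryo sex are partly confounded. Foxd1GC control replicate 3 stood apart from all other libraries in the striated muscle genes. It also held the lowest levels of the ureteric bud markers *Ret* (4.09 FPKM, against 14.1 to 20.9 FPKM in the other 9), *Calb1* (16.4 against 57.4 to 74.9 FPKM) and *Gata3* (9.1 against 29.5 to 45.4 FPKM). Most log2 fold changes of single genes against control are therefore followed, where first given, by the value without it.

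Striated muscle transcripts were detected in every kidney library, and their amount differed widely between libraries. Of the 53 genes, 44 were above 0 in all 10 libraries, 36 averaged at least 0.5 FPKM and 7 averaged at least 10 FPKM. Their summed level was 174 to 309 FPKM in wild-type, 314, 111 and 1380 FPKM in Foxd1GC control replicates 1 to 3, and 130, 55.1 and 105 FPKM in Ntn1SPKO replicates 1 to 3. Control replicate 3 thus held the highest sum, control replicate 2 lay below all wild-type kidneys, and Ntn1SPKO replicate 2 held the lowest. The libraries with Y-linked expression, wild-type replicate 3, control replicate 2 and all of Ntn1SPKO, held 55.1 to 174 FPKM. Those without it held 205 to 1380 FPKM, so this order also went with embryo sex, which is partly confounded with genotype.

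This order was shared by most genes. Among the 36 that averaged at least 0.5 FPKM, 35 were highest in Foxd1GC control replicate 3, and 24 were lowest in Ntn1SPKO replicate 2. Over all 14520 symbols at this level, 20.7% were highest in control replicate 3 and 6.8% were lowest in Ntn1SPKO replicate 2. The highest library exceeded the lowest by a median of 25.1-fold for the 36 genes and 1.54-fold for all symbols. The 3 controls stood in the order replicate 2, 1, 3 for 34 of the 36 genes. RNA from whole tissue does not tell apart fewer cells of a type and less RNA per cell.

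**Figure D1:**
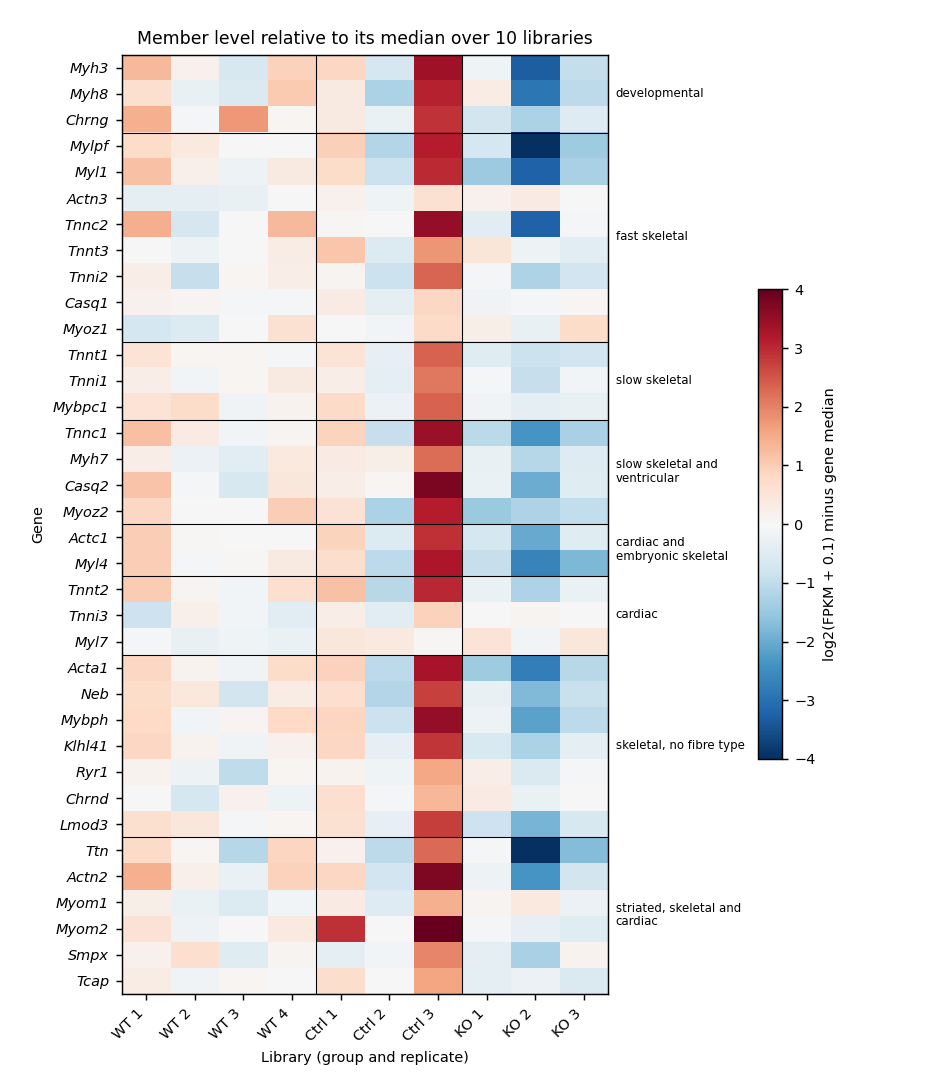
Level in each library of the 36 genes that averaged at least 0.5 FPKM (columns: WT, wild-type; Ctrl, Foxd1GC control; KO, Ntn1SPKO), as log2(FPKM + 0.1) minus the median of that gene over 10 libraries, with genes in rows grouped by isoform class. Ctrl 3 is the highest library for 35 genes and KO 2 the lowest for 24, while *Actn3*, *Myl7*, *Tnni3*, *Myoz1*, *Myom1* and *Casq1* span 1.9-fold to 4.19-fold, against a median span of 25.1-fold, and the colour scale ends at 4 in either direction.

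Myosin heavy chains carry the motor head of the thick filament. *Myh3*, the embryonic isoform, had the highest level of the 7. It was at 10.5, 4.82, 2.68 and 8.07 FPKM in wild-type replicates 1 to 4, at 7.72, 2.64 and 46.1 FPKM in Foxd1GC control replicates 1 to 3 and at 3.76, 0.344 and 2.17 FPKM in Ntn1SPKO replicates 1 to 3. The Ntn1SPKO range overlapped those of both other groups, since control replicate 2 and wild-type replicate 3 were low. The log2 fold change of Ntn1SPKO was −2.66 (SE, standard error, 1.2, limma adjusted p=0.447) against control [−1.56 without control replicate 3] and −1.90 (SE 0.764, limma adjusted p=0.819) against wild-type kidneys [−0.99 without Ntn1SPKO replicate 2].

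*Myh8*, the perinatal isoform, was at 0.665 to 2.26 FPKM in wild-type, at 1.39, 0.385 and 9.6 FPKM in control and at 1.32, 0.0571 and 0.454 FPKM in Ntn1SPKO kidneys, with overlapping groups. *Myh7*, the slow skeletal and ventricular isoform, was at 1.79, 1.65 and 7.0 FPKM in control and at 1.12, 0.576 and 0.951 FPKM in Ntn1SPKO kidneys, so that all 3 Ntn1SPKO libraries lay below all 3 controls. In wild-type kidneys *Myh7* was at 1.7, 1.18, 0.986 and 1.86 FPKM, which overlapped Ntn1SPKO. Its log2 fold change against control was −1.59 (SE 0.579, limma adjusted p=0.447, exact permutation p=0.1) [−0.93 without control replicate 3].

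The adult fast isoforms *Myh1*, *Myh2* and *Myh4* and the atrial *Myh6* were at or near 0, with at most 0.26 FPKM in any library. Near-identical sequence limits how reads split between these genes. Of all 31-base words in its coding sequence, *Myh1* shares 41.4%, *Myh2* 40.2%, *Myh8* 34.4% and *Myh4* 31.4% with other genes, and *Myh7* shares 34.0% with *Myh6*. *Myh3* shares 11.6%. Levels of the heavy chains other than *Myh3* are therefore uncertain. On chromosome 11 of GRCm38, *Myh2*, *Myh1*, *Myh4* and *Myh8* follow each other from 67171027 to 67308634, and *Myh3* lies upstream at 67078300 to 67102291.

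Myosin light chains bind the neck of the heavy chain. *Mylpf*, the fast skeletal regulatory light chain (chromosome 7, 127208890 to 127214298), was the most abundant of the 53 genes. Its level was 103, 80.7, 61.5 and 62.5 FPKM in wild-type, 119, 27.4 and 545 FPKM in control and 38.1, 2.35 and 23.0 FPKM in Ntn1SPKO kidneys. Each Ntn1SPKO library lay below each wild-type library, and Ntn1SPKO replicate 1 lay above control replicate 2. The log2 fold change was −3.23 (SE 1.38, limma adjusted p=0.447) against control [−2.15 without control replicate 3] and −2.54 (SE 0.849, limma adjusted p=0.714) against wild-type kidneys. Without Ntn1SPKO replicate 2 these were −2.03 and −1.34.

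*Myl1*, the fast essential light chain, was at 19.0, 9.8, 7.24 and 10.8 FPKM in wild-type, at 14.2, 4.6 and 67.6 FPKM in control and at 3.04, 0.799 and 3.37 FPKM in Ntn1SPKO kidneys. All Ntn1SPKO libraries lay below all 7 others. How many of all genes did so is not given here, for this or later genes. *Myl1* had the lowest unadjusted limma p of the list against control, with a log2 fold change of −2.95 (SE 1.02, limma adjusted p=0.447) [−1.94 without control replicate 3]. A pseudogene, *Mylf-ps*, shares 55.7% of its 31-base words, so the split of reads between them is uncertain.

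*Myl4*, the embryonic and atrial essential light chain, was at 9.82, 4.84, 5.1 and 6.35 FPKM in wild-type, at 8.12, 2.36 and 47.9 FPKM in control and at 2.59, 0.694 and 1.36 FPKM in Ntn1SPKO kidneys. Ntn1SPKO lay below wild-type in every library, with a log2 fold change of −2.12 (SE 0.419, limma adjusted p=0.242, exact permutation p=0.0286), and overlapped control replicate 2. *Myl7*, the atrial regulatory light chain, did not follow this order. It was at 0.833, 0.681, 0.761 and 0.705 FPKM in wild-type, at 1.21, 1.15 and 0.89 FPKM in control and at 1.29, 0.791 and 1.21 FPKM in Ntn1SPKO kidneys, a span of 1.9-fold. Its level rests on only about 10 to 20 fragments in each library. *Myl2* and *Myl3*, of slow fibres and the ventricle, were at 0.145 to 0.871 and 0 to 1.12 FPKM.

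Sarcomeric actins form the thin filament. *Actc1*, the actin of heart and embryonic skeletal muscle, was at 38.1, 19.9, 19.1 and 19.5 FPKM in wild-type, at 35.6, 13.1 and 146 FPKM in control and at 11.7, 4.71 and 13.9 FPKM in Ntn1SPKO kidneys. Every Ntn1SPKO library lay below every wild-type library, while Ntn1SPKO replicate 3 lay above control replicate 2. The log2 fold change was −2.14 (SE 0.885, limma adjusted p=0.447) against control [−1.23 without control replicate 3] and −1.32 (SE 0.404, limma adjusted p=0.627) against wild-type kidneys [−0.85 without Ntn1SPKO replicate 2].

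*Acta1*, the skeletal actin, was at 13, 8.01, 6.53 and 12.1 FPKM in wild-type, at 13.9, 3.44 and 72.6 FPKM in control and at 2.61, 0.985 and 3.32 FPKM in Ntn1SPKO kidneys. All 3 Ntn1SPKO libraries lay below the 7 others. The log2 fold change was −2.83 (SE 1.08, limma adjusted p=0.447) against control [−1.71 without control replicate 3] and −2.16 (SE 0.419, limma adjusted p=0.223, exact permutation p=0.0286) against wild-type kidneys.

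The 150 bases before the RefSeq start sites of 4 genes are shown because *Acta1*, *Actc1* and *Mylpf* share the order of libraries above whereas *Myl7* does not. They are RefSeq sequences of build GRCm38.p6, read 5′ to 3′ on the strand of the gene. The starts of *Actc1* and *Mylpf* lie inside the GENCODE span of these genes. That of *Acta1* lies before its GENCODE span, so distances from these starts are uncertain. Capitals mark matches to a CArG box (the binding sequence of serum response factor), to the E-box CANNTG (bound by myogenic regulators and many other factors) and to the TATA box TATAAA, on either strand.
Acta1, minus strand, chr8:123894776-123894925: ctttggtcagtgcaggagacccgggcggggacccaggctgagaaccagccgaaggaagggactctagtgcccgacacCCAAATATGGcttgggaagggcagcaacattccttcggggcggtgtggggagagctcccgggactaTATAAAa
Actc1, minus strand, chr2:114052876-114053025: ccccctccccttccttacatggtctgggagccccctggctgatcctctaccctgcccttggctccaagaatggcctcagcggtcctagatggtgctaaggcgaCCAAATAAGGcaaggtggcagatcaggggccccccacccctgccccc
Mylpf, plus strand, chr7:127211458-127211607: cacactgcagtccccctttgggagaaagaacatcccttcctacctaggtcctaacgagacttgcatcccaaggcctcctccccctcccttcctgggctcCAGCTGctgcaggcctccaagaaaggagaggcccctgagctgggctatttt
Myl7, minus strand, chr11:5898783-5898932: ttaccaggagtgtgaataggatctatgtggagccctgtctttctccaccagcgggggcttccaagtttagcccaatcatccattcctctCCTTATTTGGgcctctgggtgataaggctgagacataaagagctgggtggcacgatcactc

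A CArG box begins 73 bases before the start of *Acta1*, 47 before *Actc1* and 61 before *Myl7*, so genes that followed the common order and a gene that did not both hold a match. In *Mylpf* an E-box begins 51 bases before the start, in the form CAGCTG that is typical of muscle genes. Promoters of 42 of the 53 genes were found, each taken as 250 bases before and 50 from the start, and matches were counted on both strands, with this form also counted as an E-box. The form seen in *Mylpf* was in 19 of these 42 promoters (45.2%) and in 16.1% of all 27025 promoters of this length. Any E-box was in 36 (85.7%, all promoters 72.1%), a CArG box in 7 (16.7%, all promoters 1.57%), a MEF2 site in 8 (19.0%, all promoters 3.26%) and the TATA box in 11 (26.2%, all promoters 14.2%). These are matches of letters and not measured binding.

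Troponin is the calcium switch of the thin filament, with subunits T (tropomyosin binding), I (inhibitory) and C (calcium binding). All 8 troponin genes were above 0.5 FPKM on average. *Tnnt1*, the slow skeletal troponin T (chromosome 7, 4504570 to 4516382), was the most abundant and had the lowest unadjusted p of the list against wild-type kidneys. It was at 19.8, 14.2, 14.2 and 12.8 FPKM in wild-type, at 19.8, 10.8 and 69.2 FPKM in control and at 9.67, 7.38 and 7.85 FPKM in Ntn1SPKO kidneys.

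All 3 Ntn1SPKO libraries lay below the 7 others for *Tnnt1*. The log2 fold change was −0.86 (SE 0.163, limma adjusted p=0.204, exact permutation p=0.0286) against wild-type and −1.56 (SE 0.632, limma adjusted p=0.447) against control kidneys [−0.82 without control replicate 3]. *Tnnt2*, the cardiac and embryonic troponin T, was at 6.15, 3.25, 2.81 and 4.73 FPKM in wild-type, at 6.86, 1.34 and 25.1 FPKM in control and at 2.5, 1.24 and 2.49 FPKM in Ntn1SPKO kidneys, below wild-type in every library but not all below control replicate 2. *Tnnt3*, the fast isoform, was at 2.75, 2.33, 2.7 and 3.34 FPKM in wild-type, at 5.96, 1.84 and 9.41 FPKM in control and at 3.89, 2.38 and 2.0 FPKM in Ntn1SPKO kidneys. Its group means were 2.78 FPKM in wild-type and 2.76 FPKM in Ntn1SPKO kidneys, and the groups overlapped.

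Among troponin I genes, slow *Tnni1* led. It was at 12.5, 9.56, 11.1 and 13.3 FPKM in wild-type, at 12.5, 7.91 and 44.9 FPKM in control and at 9.76, 5.48 and 9.67 FPKM in Ntn1SPKO kidneys. Ntn1SPKO overlapped both other groups, with a log2 fold change of −1.03 (SE 0.632, limma adjusted p=0.489) against control [−0.31 without control replicate 3]. Fast *Tnni2* was at 1.91, 0.778, 1.67 and 1.9 FPKM in wild-type, at 1.7, 0.815 and 8.21 FPKM in control and at 1.46, 0.601 and 0.881 FPKM in Ntn1SPKO kidneys, again with overlap.

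*Tnni3*, the cardiac troponin I, was at 1.29, 2.77, 2.21 and 1.71 FPKM in wild-type, at 2.91, 1.74 and 4.55 FPKM in control and at 2.42, 2.59 and 2.34 FPKM in Ntn1SPKO kidneys. The Ntn1SPKO libraries lay within the range of each other group. *Tnni3* lies 1922 bases from *Tnnt1*, and yet its log2 fold change against wild-type was 0.33 (SE 0.242, limma adjusted p=0.947) where that of *Tnnt1* was −0.86. The difference between them was not tested. The annotated span of *Dnaaf3* overlaps *Tnni3* on the same strand. The coding sequence of *Tnni3* shares 0.0% of its 31-base words with other genes. Whether RNA of *Dnaaf3* adds to the level of *Tnni3* was not tested.

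*Tnnc1*, the troponin C of slow fibres and heart, was at 15.7, 8.49, 6.28 and 7.21 FPKM in wild-type, at 12.6, 3.47 and 75.1 FPKM in control and at 3.11, 1.24 and 2.7 FPKM in Ntn1SPKO kidneys, so that all 3 Ntn1SPKO libraries were below the 7 others. Its log2 fold change was −2.72 (SE 1.06, limma adjusted p=0.447) against control [−1.56 without control replicate 3] and −1.96 (SE 0.392, limma adjusted p=0.245, exact permutation p=0.0286) against wild-type kidneys. *Tnnc2*, the fast troponin C, was at 10.3, 2.28, 3.6 and 9.28 FPKM in wild-type, at 3.8, 3.76 and 42.8 FPKM in control and at 2.66, 0.299 and 3.52 FPKM in Ntn1SPKO kidneys. Ntn1SPKO lay below every control library and overlapped wild-type kidneys.

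Genes of the thin filament length and stability class encode giant nebulin, leiomodins and the kelch proteins that stabilise them. *Neb* was at 2.7, 2.13, 0.919 and 1.98 FPKM in wild-type, at 2.56, 0.641 and 11.2 FPKM in control and at 1.26, 0.398 and 0.813 FPKM in Ntn1SPKO kidneys, with overlap at the low end of both other groups. *Klhl41* and *Lmod3* lay below all 7 other libraries in all 3 Ntn1SPKO libraries. For *Klhl41* the group means were 1.28 FPKM in wild-type, 3.6 FPKM in control and 0.594 FPKM in Ntn1SPKO kidneys, and for *Lmod3* 0.42, 1.19 and 0.109 FPKM. The level of *Lmod3* in Ntn1SPKO rests on only about 7, 1 and 8 fragments in replicates 1 to 3. *Klhl40* was at 0.109 to 2.02 FPKM and *Lmod2* at 0 to 0.439 FPKM.

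Z-discs anchor thin filaments and M-bands join thick filaments at the centre of the sarcomere. *Actn3*, the alpha-actinin of fast fibres (chromosome 19, 4861216 to 4877909), had the highest mean of this class and varied far less than most. It was at 7.6, 7.53, 7.81 and 9.68 FPKM in wild-type, at 10.9, 8.66 and 14.8 FPKM in control and at 11, 12.3 and 9.7 FPKM in Ntn1SPKO kidneys, a span of 1.97-fold. All Ntn1SPKO libraries lay above all wild-type libraries, though narrowly. The log2 fold change was 0.43 (SE 0.12, limma adjusted p=0.529, exact permutation p=0.0571) against wild-type and −0.03 (SE 0.203, limma adjusted p=0.947) against control kidneys [0.17 without control replicate 3].

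Its paralog *Actn2*, of all striated fibres, spanned 0.244 FPKM in Ntn1SPKO replicate 2 to 23.1 FPKM in control replicate 3. *Myom2*, an M-band protein of adult fast fibres and heart, was at 0.538, 0.277, 0.323 and 0.465 FPKM in wild-type, at 3.19, 0.338 and 8.65 FPKM in control and at 0.313, 0.24 and 0.21 FPKM in Ntn1SPKO kidneys. Control replicates 1 and 3 stood above the other 8 libraries, which lay close together, and control replicate 3 was 26.8-fold above the median of the other 9 libraries, more than for any other listed gene. Its log2 fold change was 2.25 (SE 0.898, limma adjusted p=0.665, exact permutation p=0.0857) for control against wild-type and −2.73 (SE 1.04, limma adjusted p=0.447, exact permutation p=0.1) for Ntn1SPKO against control. Without control replicate 3 these were 1.29 and −1.77.

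Titin (*Ttn*), the molecular spring of the sarcomere, was at 16.1 FPKM in control replicate 3 and 0.0887 FPKM in Ntn1SPKO replicate 2, with 0.908 to 5.92 FPKM in the other 8 libraries. *Tcap*, the titin cap, was at 0.322 to 0.434 FPKM in Ntn1SPKO and 0.474 to 1.79 FPKM in all other libraries. These levels rest on few reads, about 4 to 6 fragments in Ntn1SPKO and 7 to 25 in the other libraries. *Myoz1* and *Myom1*, by contrast, spanned 0.364 to 1.19 and 0.849 to 3.56 FPKM with overlapping groups. *Myoz2*, *Myot* and *Ldb3*, further Z-disc genes, had their highest levels of 5.77, 1.01 and 2.35 FPKM in control replicate 3.

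Among myosin-binding proteins, which brace the thick filament, slow *Mybpc1* led. It was at 2.61, 3.0, 1.61 and 1.94 FPKM in wild-type, at 3.1, 1.5 and 9.48 FPKM in control and at 1.59, 1.37 and 1.41 FPKM in Ntn1SPKO kidneys. All Ntn1SPKO libraries lay just below all wild-type libraries, with a log2 fold change of −0.59 (SE 0.222, limma adjusted p=0.782, exact permutation p=0.0571). *Mybph* was at 0.128 to 0.773 FPKM in Ntn1SPKO, 0.833 to 1.65 FPKM in wild-type and 1.71, 0.445 and 11.3 FPKM in control kidneys, so that Ntn1SPKO overlapped control replicate 2. Fast *Mybpc2* and cardiac *Mybpc3* stayed at or below 0.159 FPKM.

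Excitation-contraction genes link the membrane signal to calcium release. *Casq2*, the calsequestrin of heart and slow fibres that stores calcium, was at 1.57, 0.604, 0.386 and 0.923 FPKM in wild-type, at 0.802, 0.698 and 10.2 FPKM in control and at 0.529, 0.0877 and 0.439 FPKM in Ntn1SPKO kidneys. Ntn1SPKO lay below all controls and overlapped wild-type kidneys, with a log2 fold change against control of −2.29 (SE 1.07, limma adjusted p=0.447) [−1.09 without control replicate 3]. *Casq1*, the fast calsequestrin, spanned 0.903 to 2.18 FPKM. *Ryr1*, the skeletal calcium release channel, spanned 0.387 to 2.78 FPKM and *Ryr2*, the cardiac channel, 0.0823 to 0.354 FPKM. *Cacna1s* and *Cacng1*, subunits of the voltage sensor, reached 1.93 and 1.52 FPKM in control replicate 3 and at most 0.113 FPKM in Ntn1SPKO kidneys. The groups overlapped for *Cacna1s*, which was at 0.0739 FPKM in control replicate 2 and 0.101 FPKM in wild-type replicate 3, and *Cacng1* was listed at 0 in wild-type replicate 3.

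Acetylcholine receptor subunits receive the nerve signal. *Chrng*, the fetal gamma subunit, was at 1.14, 0.341, 1.42 and 0.383 FPKM in wild-type, at 0.49, 0.288 and 3.35 FPKM in control and at 0.176, 0.0932 and 0.222 FPKM in Ntn1SPKO kidneys. All 3 Ntn1SPKO libraries were below the 7 others, with a log2 fold change of −1.84 (SE 0.863, limma adjusted p=0.447) against control [−0.89 without control replicate 3] and −1.62 (SE 0.548, limma adjusted p=0.714) against wild-type kidneys. *Chrna1*, the alpha subunit, was at 0.0652 to 0.123 FPKM in Ntn1SPKO, 0.173 to 0.488 FPKM in wild-type and 0.472, 0.0396 and 2.99 FPKM in control kidneys, with control replicate 2 below all Ntn1SPKO libraries. *Chrnd*, the delta subunit, 4586 bases from *Chrng*, spanned 0.31 to 1.57 FPKM with overlapping groups. Low levels rest on few reads: *Chrng* in Ntn1SPKO replicate 2 corresponds to about 4 fragments.

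Of the further striated genes, *Smpx*, a small protein of stretch-sensing structures, was at 1.02, 1.49, 0.622 and 0.981 FPKM in wild-type, at 0.688, 0.829 and 3.75 FPKM in control and at 0.68, 0.312 and 1.01 FPKM in Ntn1SPKO kidneys, with overlap. These levels rest on only about 2 to 27 fragments in each library. *Ckm*, muscle creatine kinase, was listed at 0 in all 3 Ntn1SPKO libraries and in wild-type replicate 2. It reached 0.516 FPKM in control replicate 3.

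**Figure D2:**
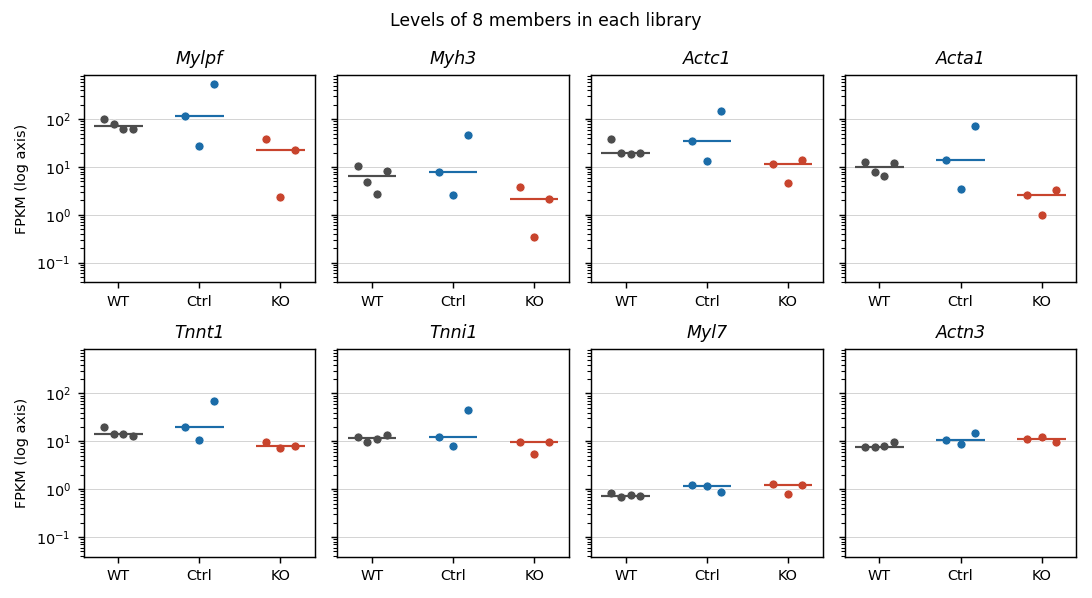
FPKM on a log axis for 8 genes, with a point for each library and a bar for the median of wild-type (WT, n=4), Foxd1GC control (Ctrl, n=3) and Ntn1SPKO (KO, n=3) kidneys. *Mylpf* spans 2.35 to 545 FPKM, with Ctrl replicate 3 highest and KO replicate 2 lowest, whereas *Myl7* stays between 0.681 and 1.29 FPKM and *Actn3* between 7.53 and 14.8 FPKM.

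The comparison of Ntn1SPKO with Foxd1GC control kidneys addresses the loss of stromal *Ntn1* with Cre present on both sides. Of the 53 genes, 40 passed the mean of 0.5 FPKM over these 6 libraries, and 10 of the 40 were below 0.5 FPKM on average in Ntn1SPKO kidneys, having passed through the higher controls. Ntn1SPKO was lower for 38 and higher for 2, *Myl7* and *Myoz1*, both with a log2 fold change of 0.00 at this precision. The median log2 fold change was −1.70, and over all 14550 genes tested it was 0.01.

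With limma at an adjusted p under 0.1 and at least a 2-fold difference, 0 of the 40 were called, and the smallest adjusted p was 0.447. Over all genes tested 0.055% were called. At an unadjusted p under 0.05, 9 of the 40 were lower and 0 higher in Ntn1SPKO kidneys (over all genes 5.17% lower and 5.49% higher). These 9 were *Myl1*, *Myh7*, *Myom2*, *Acta1*, *Myl4*, *Tnnc1*, *Tnnt1*, *Tcap* and *Actc1*. All 3 Ntn1SPKO libraries lay below all 3 controls for 14 and above them for 0 (over all genes 8.91% and 11%). Of these 14, *Tcap*, *Myom2*, *Casq2*, *Chrng*, *Klhl40*, *Lmod3* and *Ldb3* averaged under 0.5 FPKM in Ntn1SPKO kidneys. They passed the filter through the higher controls, so their Ntn1SPKO mean was bound to be lower. The same holds for *Tcap* and *Myom2* among the 9. An exact permutation test of 3 against 3 libraries cannot go below p=0.1.

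Control replicate 3 set much of the size of these differences. Without it, 34 genes passed the filter, 30 were lower and 4 higher in Ntn1SPKO kidneys, the median log2 fold change was −0.75, and limma gave 0 calls and 3 genes at an unadjusted p under 0.05. Without control replicate 2 the median was −2.51, and *Myom2* was called (log2 fold change −3.93, limma adjusted p=0.0732), with 31 genes lower at an unadjusted p under 0.05. Leaving out any other library in turn gave 0 calls and 0 to 5 such genes, the 0 being without Ntn1SPKO replicate 2. Shares over all genes are not given for fits without a library, and those above belong to the fit of all libraries. With Y-linked expression as a covariate the median was −0.28, with 24 lower and 16 higher. In that fit Ntn1SPKO kidneys, all Y-positive, are set against control replicate 2, the single Y-positive control.

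The comparison of Ntn1SPKO with wild-type kidneys does not use the controls, though it shares the Ntn1SPKO libraries with the comparison above. Of the 33 genes tested, 4 were below 0.5 FPKM on average in Ntn1SPKO kidneys. Ntn1SPKO was lower for 26 and higher for 7, with a median log2 fold change of −0.99 (all 14432 genes tested 0.00). Limma called 0, with a smallest adjusted p of 0.204, and called 0.0485% over all genes.

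At an unadjusted p under 0.05, 17 genes were lower and 1, *Actn3*, was higher in Ntn1SPKO kidneys (over all genes 3.31% and 2.45%). The 3 Ntn1SPKO libraries lay below all 4 wild-type libraries for 13 genes and above them for *Actn3* alone (over all genes 3.54% and 3.56%). Both counts of lower genes include *Myoz2*, *Mybph* and *Chrng*, which averaged under 0.5 FPKM in Ntn1SPKO kidneys. They passed the filter through the wild-type libraries, so their Ntn1SPKO mean was bound to be lower. *Tnnt1*, *Acta1* and *Myl4* had the lowest unadjusted p. For each of these 3 genes the exact permutation test over libraries gave p=0.0286, the smallest that 3 against 4 allow. Leaving out each library in turn gave medians of −1.17 to −0.675. Ntn1SPKO replicate 2 held the lowest value for most genes. Without it the count lower at an unadjusted p under 0.05 was 9 and limma called 0, and without wild-type replicate 1 the count was 10. Again no shares over all genes are given for fits without a library. With Y-linked expression as a covariate the median was −0.61, a fit that sets Ntn1SPKO kidneys against wild-type replicate 3, the single Y-positive wild-type library.

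Foxd1GC control against wild-type kidneys asks what the Foxd1GC allele goes with, which brings Cre together with the loss of a *Foxd1* allele. All 39 genes tested were higher in control kidneys, 5 of them below 0.5 FPKM on average in wild-type kidneys, with a median log2 fold change of 0.67 (all 14594 genes tested −0.01). Limma called 0, with a smallest adjusted p of 0.665, and called 0.00685% over all genes. At an unadjusted p under 0.05, 2 genes were higher, *Myom2* and *Actn3*, and 0 were lower (over all genes 3.84% and 3.23%). Groups did not overlap for *Myl7* alone, which was higher in control (over all genes 4.04% higher and 4.04% lower). Its log2 fold change was 0.48 (SE 0.228, limma adjusted p=0.665).

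The direction of that comparison rested on control replicate 3. Without it, 24 of 35 genes tested were lower in control kidneys, and the median log2 fold change was −0.21, with 0 called by limma and 1 at an unadjusted p under 0.05. Without control replicate 2 the median was 1.41, 21 genes were higher at an unadjusted p under 0.05, and *Myom2* was called (log2 fold change 3.45, limma adjusted p=0.0919). The median and shares over all genes given above belong to the fit of all libraries and not to these fits.

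**Figure D3:**
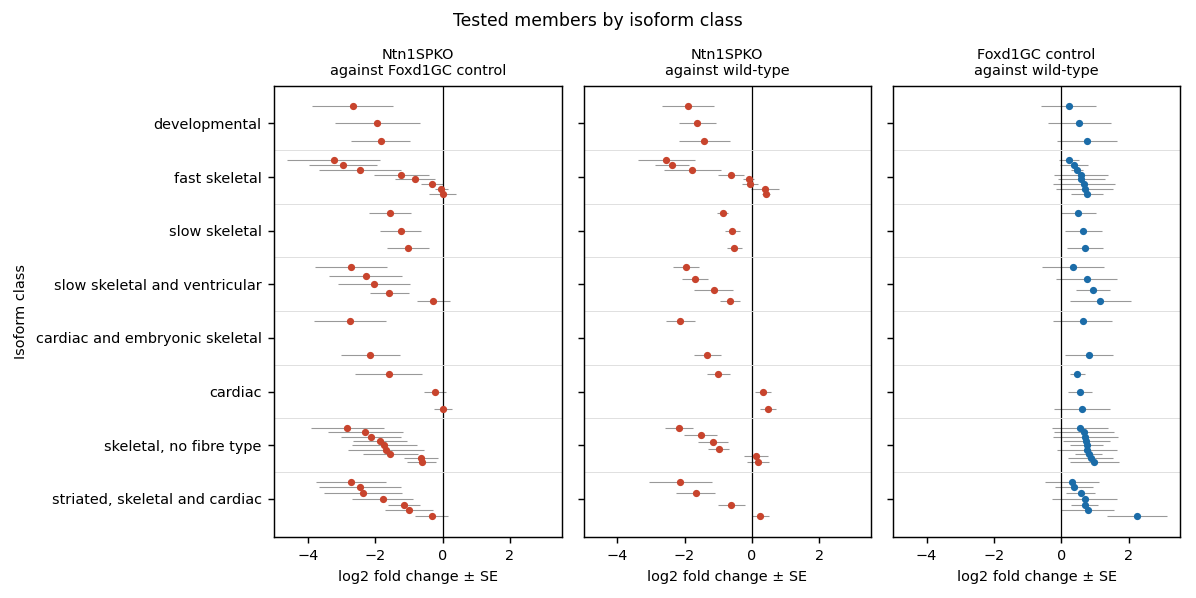
Log2 fold change with its standard error for each tested gene, on the log2(FPKM + 0.1) scale, in rows by isoform class for the 3 comparisons (40, 33 and 39 genes). Most points lie left of 0 in both panels with Ntn1SPKO and right of 0 in the panel of control against wild-type, and the panels share libraries.

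By isoform class, skeletal isoforms held most of the signal. Fast skeletal genes held 37.2% to 51.3% of the summed FPKM of the 53 genes, and slow skeletal genes held 8.97% to 25.8%. *Mylpf* made up most of the fast share in 9 libraries, whereas in Ntn1SPKO replicate 2 *Actn3* (12.3 FPKM) exceeded *Mylpf* (2.35 FPKM). *Actc1* and *Myl4*, the pair shared by heart and embryonic skeletal muscle, held 9.81% to 15.5%. The 6 cardiac genes held 2.24% to 9.02%, mostly through *Tnnt2* and *Tnni3*, with *Myh6*, *Mybpc3* and *Ryr2* at most 0.354 FPKM. *Tnnt2*, named above as both cardiac and embryonic, was counted in this class and followed the common order of libraries. The cardiac share is therefore not one of heart isoforms alone. Developmental genes held 0.897% to 4.92%.

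In Ntn1SPKO against control, the median log2 fold change was −2.45 for *Actc1* and *Myl4*, −2.04 for 5 genes of slow muscle and ventricle, −1.94 for 3 developmental genes, −1.24 for 3 slow skeletal genes, −1.02 for 8 fast skeletal genes and −0.21 for 3 cardiac genes. Without control replicate 3 the medians of these genes were −1.42, −0.93, −0.89, −0.54, −0.32 and −0.12 in the same order. Against wild-type kidneys the same classes had medians of −1.72, −1.41 (4 genes), −1.62, −0.59, −0.36 and 0.33. Each class held genes of differing size. Within the fast class log2 fold changes ran from −3.23 for *Mylpf* to 0.00 for *Myoz1* against control. Within the cardiac class they ran from −1.60 for *Tnnt2* [−0.61 without control replicate 3] to 0.00 for *Myl7*. The differences between classes were not tested.

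Shares within isoform families were read from the same values. *Myh3* held 55.4% to 74.5% of summed myosin heavy chain FPKM in 9 libraries and 29.7% in Ntn1SPKO replicate 2, where all heavy chains were low and *Myh7* held 49.7%. *Tnnt1* held 60.2% to 77.2% of troponin T and *Tnni1* 63.2% to 79.7% of troponin I, so that slow isoforms led both families in every library. *Tnnc1* held 43.5% to 80.6% of troponin C. *Mylpf* held 92.9% to 99.7% of regulatory light chain FPKM in 9 libraries and 58.9% in Ntn1SPKO replicate 2.

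*Actc1* exceeded *Acta1* in every library. Its share of the 2 actins was 81.7% ± 1.02 (SD, n=3) in Ntn1SPKO, 72.6% ± 6.22 (SD, n=3) in control and 70.5% ± 6.1 (SD, n=4) in wild-type kidneys. The actin shares were the only ones of 29 family shares for which the 3 Ntn1SPKO libraries did not overlap the 7 others, and no test was made. Shares of genes that did not follow the common order moved against the sum, as must follow where the other gene of the family varied far more. *Actn3* held 39.1% of alpha-actinin in control replicate 3 and 98.1% in Ntn1SPKO replicate 2, and *Casq1* 17.6% and 92.9% of calsequestrin.

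**Figure D4:**
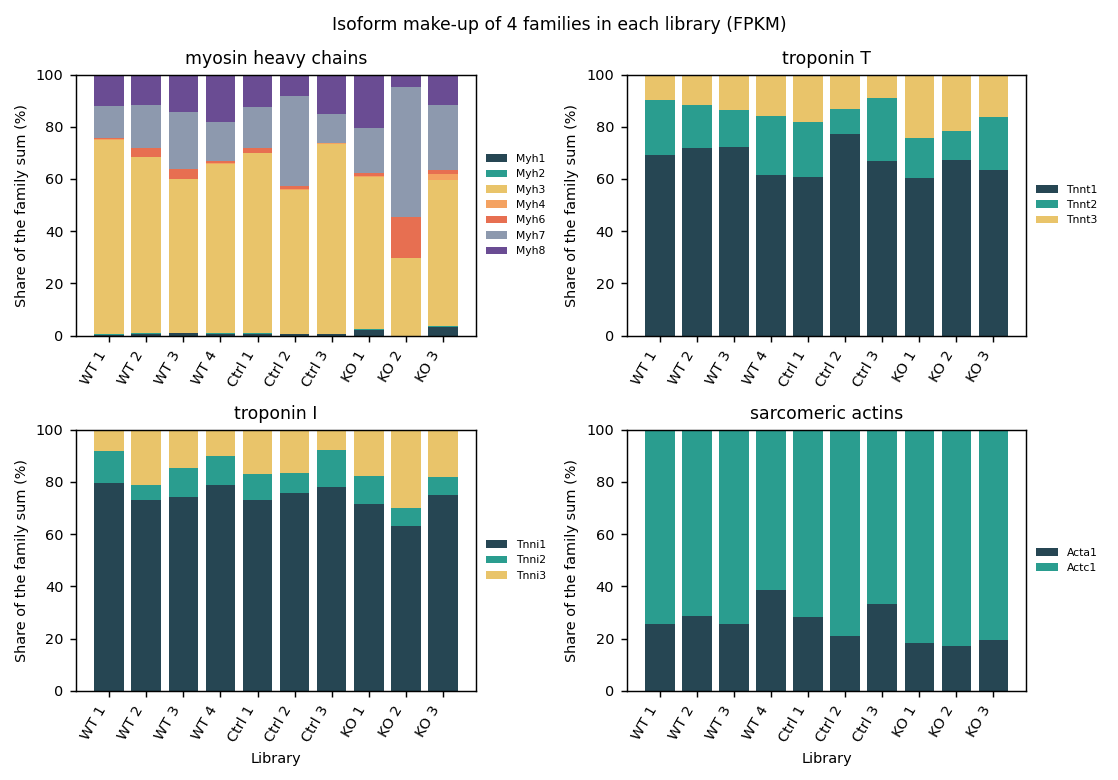
Share of each isoform in the summed FPKM of its family (stacked bars to 100%) in each library, for 7 myosin heavy chains, 3 troponin T, 3 troponin I and 2 actin genes (WT, wild-type; Ctrl, Foxd1GC control; KO, Ntn1SPKO). *Myh3*, *Tnnt1*, *Tnni1* and *Actc1* lead their families in all libraries except KO 2, where *Myh7* holds more of the heavy chains (49.7%) than *Myh3* (29.7%).

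Regulators of skeletal muscle formation were read from a separate list of 8 genes. *Myog*, which drives differentiation of myoblasts, was at 5.62, 2.61, 2.76 and 2.34 FPKM in wild-type, at 5.12, 1.18 and 30.0 FPKM in control and at 0.707, 0.379 and 0.904 FPKM in Ntn1SPKO kidneys. *Myod1*, the determination factor, was at 1.88, 0.761, 0.986 and 1.06 FPKM, at 2.02, 0.488 and 8.4 FPKM and at 0.294, 0.146 and 0.466 FPKM in the same groups. For *Myog*, *Myod1* and the myoblast fusion gene *Mymk*, all Ntn1SPKO libraries lay below all 7 others. Control replicate 3 was again the highest library and Ntn1SPKO replicate 2 the lowest for all 3 genes.

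Against wild-type kidneys the log2 fold change was −2.15 for *Myog* (limma adjusted p=0.156), −2.11 for *Mymk* (adjusted p=0.189) and −1.67 for *Myod1* (adjusted p=0.378). Of the 4 regulators tested, 0 were called (over all genes 0.0485%). At an unadjusted p under 0.05, 3 were lower (over all genes 3.31%). *Mymx*, another fusion gene, was at 0.832 to 5.83 FPKM with overlapping groups. *Pax3*, *Pax7*, *Myf5* and *Myf6* stayed at or below 0.748 FPKM. The summed level of the 8 regulators was 5.7 to 11.6 FPKM in wild-type, 3.86 to 54.0 FPKM in control and 1.73 to 3.35 FPKM in Ntn1SPKO kidneys.

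A list of 54 other striated muscle genes had 36 tested against control, of which 29 were lower and 7 higher in Ntn1SPKO kidneys. The median log2 fold change was −0.46. At an unadjusted p under 0.05, 2 were lower and 2 higher (over all genes 5.17% and 5.49%), and 0 were called (over all genes 0.055%). Against wild-type kidneys 17 of 28 were lower, with a median of −0.04. At an unadjusted p under 0.05, 5 were lower and 1 higher (over all genes 3.31% and 2.45%), and limma called 0 (over all genes 0.0485%). Their summed level was 809 to 1110 FPKM, since this list holds genes that many non-muscle cells use.

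Lists of other tissues that a dissected kidney could carry were read beside the sarcomere genes, and their part in the result was not tested. Cardiac regulators (10 genes) summed to 0.507 to 1.85 FPKM, and only 3 of them were above 0 in all libraries. Smooth muscle genes (12) summed to 191 to 241 FPKM in wild-type, 214 to 343 FPKM in control and 209 to 236 FPKM in Ntn1SPKO kidneys, with control replicate 3 the highest. *Acta2* was at 80.6 FPKM there, against 15.3 to 25.3 FPKM elsewhere. *Actg2*, *Tagln*, *Lmod1*, *Myl9* and *Cald1* were also highest there, whereas *Myh11*, *Cnn1*, *Smtn*, *Myocd*, *Mylk* and *Synpo2* were not. Tendon genes (6) summed to 13.4 to 19.7, 11.9 to 26.9 and 12.2 to 14.2 FPKM in wild-type, control and Ntn1SPKO kidneys, and their sum was again highest in control replicate 3.

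Liver genes (6) summed to 7.01 to 23.3 FPKM in wild-type, 12.2 to 30.5 FPKM in control and 4.05 to 13.7 FPKM in Ntn1SPKO kidneys. Against control, 4 of 4 tested were lower at an unadjusted p under 0.05 (over all genes 5.17%). Limma called 0 of them (over all genes 0.055%). Cartilage genes (7) were lowest in control replicate 3 (26.1 FPKM), with up to 39.5 FPKM elsewhere, and neural genes (8) summed to 14.4 to 26.0 FPKM. Erythroid genes (8 found of 10) summed to 2920 to 12500 FPKM. Their highest sum was in Ntn1SPKO replicate 3, where the sarcomere genes were low, and the next highest in control replicate 3, where they were high. The kidney markers summed to 390 FPKM in control replicate 3, the lowest of the 10 libraries, and to 506 FPKM in Ntn1SPKO replicate 2, the highest. Besides the low ureteric bud markers, control replicate 3 held the highest levels of *Six2* (96.4 FPKM), *Cited1* (70.1 FPKM) and *Osr1* (37.1 FPKM), genes of nephron progenitors, against at most 92.5, 64.2 and 26.8 FPKM elsewhere. The remaining kidney markers were not highest there. *Pax2* (31.2 FPKM) and *Hoxb7* (22.9 FPKM) were lowest in it, with at least 45.5 and 27.3 FPKM elsewhere. *Wt1* (77.3 FPKM) and *Foxd1* (25.6 FPKM) lay within the range of the other libraries.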

How the data were processed

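Libraries of whole E13.5 kidneys were analysed: 4 wild-type, 3 Foxd1GC control and 3 Ntn1SPKO. The authors quantified reads with Salmon against coding sequences of Ensembl GRCm38 and imported them to genes (bcl2fastq 2.17.1.14 is named in the submitters' processing notes). The deposited values are FPKM, and how they were scaled is not given in the sources used here. An index of coding sequences without the genome can assign reads of close paralogs to either gene. Median-of-ratios factors were 1 in every library, so values were used as deposited. Genes that averaged at least 0.5 FPKM in the libraries compared entered a test of log2(FPKM + 0.1), a scale that understates differences of low genes, with limma 3.58.1 in R 4.3.3 (eBayes with an intensity trend, Benjamini-Hochberg adjustment over all genes tested). Calls needed an adjusted p under 0.1 and at least a 2-fold difference. Exact permutation tests were two-sided. Values of single genes and classes without 1 library are differences of mean log2(FPKM + 0.1) over the same genes. Rough depth was read from the steps of FPKM times coding length in genes with a single coding transcript. Gene positions, coding lengths and shared 31-base words came from GENCODE M21 (GRCm38).

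The listed genes and all other lists were chosen with earlier results of these data known. Values in every library are given for the gene with the highest mean of each role, heavy chains and troponins above 0.5 FPKM on average, any gene called and the 3 lowest unadjusted p per comparison, and for other genes by range. Values of *Lmod3*, *Klhl41* and *Tcap* were added after they had been seen. The spans of 9 listed genes overlap another protein-coding gene, and the strand setting is not given in the sources used here. The fit was tested on simulated data with 200 genes altered. For Ntn1SPKO against control (14286 genes tested), 41.8% of 2-fold, 86.6% of 4-fold and 87.9% of 8-fold differences were recovered, with 10 false calls. The altered genes were drawn at random from all genes, so recovery among the listed genes was not measured. Between libraries the listed genes spanned a median of 25.1-fold, and all symbols 1.54-fold. Alternatives were a pseudocount of 1 or of 0.01, no filter, a filter at 1 FPKM, 2 rescalings, no trend, robust eBayes, all 10 libraries in 1 fit, the replicate block, embryo sex, other call limits and leaving out each library.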

Additional observations from a re-analysis of the deposited data

Results flagged for a closer look

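Among the 4 wild-type libraries, 36 sarcomere and excitation-contraction genes were checked for a library far from the others, by the gap to its neighbour as a share of the range. *Actc1* was flagged at 0.962, because replicate 1 was at 38.1 FPKM and the other 3 at 19.1 to 19.9 FPKM. *Actn3* was flagged at 0.87, because replicate 4 was at 9.68 FPKM and the others at 7.53 to 7.81 FPKM. Chance flags about 1 in 20 such groups, and 2 of 36 were flagged. Groups of 3 were not checked in this way, so Foxd1GC control replicate 3 was not assessed by it.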

How the results depend on the processing

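No listed gene was called by limma in any comparison, with 9 lower, 17 lower and 1 higher, and 2 higher at an unadjusted p under 0.05 in the 3 comparisons, and the counts of 0 held under pseudocount, filter, scaling, trend and threshold alternatives. The exceptions follow. With embryo sex as a covariate, 1 gene (*Chrng*, log2 fold change −2.56, adjusted p=0.0652) was called in Ntn1SPKO against wild-type, where the fit rests on 1 wild-type library, replicate 3, which held the highest wild-type *Chrng*, and the median log2 fold change against control was −0.28 in place of −1.70. In that fit against control, which sets Ntn1SPKO against control replicate 2, 16 of the 40 genes tested changed sign, and among those named with values *Actn3* (0.332), *Myh8* (0.0379), *Neb* (0.199), *Tnni1* (0.0207), *Tnni2* (0.163), *Tnni3* (0.47), *Tnnt2* (0.527) and *Tnnt3* (0.501) turned positive and *Myl7* (−0.0925) negative. Scaling to the same sum took *Actn3* to 0.00216. The count of 9 lower against control at an unadjusted p under 0.05 became 0 with the sex covariate, 3 without the trend, 5 with a pseudocount of 1 and 21 with all 10 libraries in 1 fit, and the count of 17 against wild-type became 5 with the sex covariate and 5 in that fit. No shares over all genes are given for these alternatives.

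Leaving out libraries in turn gave 0 to 1 calls against control and 0 to 1 in control against wild-type, where the call was *Myom2* without control replicate 2, and medians of −0.213 (without control replicate 3) to 1.41 in control against wild-type. Signs turned against control for *Actn3* (−0.216 to 0.168), *Myl7* (−0.122 to 0.202) and *Tnni3* (−0.556 to 0.115), and against wild-type for *Tnnt3* (−0.323 to 0.14). The replicate block gave 0 calls, 18 genes lower against control at an unadjusted p under 0.05, and medians of −1.70, −1.02 and 0.68 in the 3 comparisons, and turned *Tnnt3* to 0.0348 against wild-type. Same-numbered libraries did not deviate together, so the numbers were not taken as pairs. Depth limits short genes under 0.5 FPKM, and also genes above it that rest on few fragments in some or all libraries. These include *Myl7*, *Tcap*, *Smpx*, *Lmod3*, *Myoz2*, *Casq2* and *Tnnc2*.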
